A study of Mus musculus with 17 samples.

Results

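The simple epithelial keratins are the keratin genes best known from single-layered epithelia and glands, and 5 of them, Krt7, Krt8, Krt18, Krt19 and Krt20, were followed here by gene symbol among the 20572 genes of the count tables. The RNA and ribosome footprint counts of these 5 genes were compared between Msi2 shRNA and scrambled shRNA, and Msi2 binding regions were looked for on their transcripts. There were 3 RNA libraries and 3 footprint libraries from cells with Msi2 shRNA, 3 of each from cells with scrambled shRNA, and 5 Msi2 CLIP libraries from cells without either hairpin in their labels. Musashi-2 (Msi2) is an RNA-binding protein, and the study looked for the transcripts it acts on in keratinocytes.

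Each group was a spontaneously immortalized keratinocyte culture from C57BL/6 neonatal skin. The cells had been grown for 3 passages on NIH-3T3 J2 feeder cells pretreated with mitomycin-C and then on uncoated dishes. Lentiviral vectors delivered the hairpins, and selection with puromycin at 2 ug/ml began 2 days after infection and lasted 2 days. Cultures for footprints additionally received cycloheximide, given as 50 mg/ml, for 1 min. CLIP cultures were irradiated with UVC at 200 mJ/cm2 in repeated doses, and their RNase was diluted 1 in 1, 20, 20, 50 and 75. Separate cultures behind the replicate libraries are not stated in the labels. The p-values therefore reflect how far libraries of 1 group differ, which may be technical. The number of different hairpin sequences was not given in the sources used here.

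Keratins are intermediate filament proteins that assemble only as pairs of a type I and a type II chain. Krt8 (type II) and Krt18 (type I) are the partners found in simple epithelia such as liver and gut, and each is degraded where the other is lacking. Krt7 is a type II chain of ducts and glands, Krt19 a small type I chain without the usual tail domain, and Krt20 a type I chain of intestinal epithelium. In skin, these keratins are known from Merkel cells, glands and parts of the hair follicle, whereas basal keratinocytes build their filaments mainly from Krt5 and Krt14.

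The type II genes and Krt18 lie together, with Krt7 at chr15:101412403-101427806 (plus strand), Krt8 at chr15:101996711-102004342 (minus strand) and Krt18 at chr15:102028216-102032026 (plus strand), in GRCm38.p6. Krt19 lies at chr11:100140810-100145926 and Krt20 at chr11:99428385-99438153. Krt8 and Krt18 are transcribed away from each other, with 23.9 kb between their starts. RefSeq promoter sequences were matched for 4 of the 5 members. The 30 bases before each start are shown because the members did not move alike. They read 5′ to 3′ on the gene's own strand, and capitals mark a TATAAA on the strand shown.
Krt7: cagcctccgccccgcatggaggaataaaag
Krt8: ttccctcccctggggctggcctcttctttt
Krt18: tcccgcggcgatataacaacaggtcgagga
Krt20: cTATAAAaggtcatctccacagcagcccga
The windows are chr15:101412373-101412402, chr15:102004343-102004372, chr15:102028186-102028215 and chr11:99438154-99438183. Promoters from 250 bases before to 50 after the start were searched on both strands for TATAAA, for TGANTCA (the AP-1 motif) and for GGGCGG (the core of the Sp1 motif). Positions give the first base, read along the gene. TATAAA was found in Krt20 at position -29 and in Krt8 at -3 and -1, as an overlapping pair with a copy on each strand that runs past the start, and in 13.6% of 32851 promoters. GGGCGG was found 4 times in Krt7 and in 35.7% of promoters. TGANTCA was found in none of the 4 and in 7.81% of promoters.

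Total gene counts ran from 9221566 to 26785876 in the Msi2 shRNA RNA libraries and from 11291571 to 24931967 in the scrambled ones. Footprint libraries were shallower, with 512256 to 2069440 counts under Msi2 shRNA and 702602 to 2959625 under scrambled shRNA. Levels are CPM, read counts scaled to library size with TMM factors, and a gene was called at an adjusted p under 0.05 in edgeR's quasi-likelihood test over all genes tested. Msi2 footprints were 4.53, 0 and 5.12 CPM in Msi2 shRNA libraries and 17.1, 16.8 and 18.3 CPM in scrambled libraries. They rested on few reads, 9, 0 and 5 with Msi2 shRNA and 39, 50 and 13 with scrambled shRNA. The log2 fold change was -2.08 ± 0.41 (SE; edgeR, adjusted p = 0.000285). Msi2 RNA was 6.02 ± 0.796 CPM with Msi2 shRNA and 7.32 ± 1.30 CPM with scrambled shRNA (SD, n = 3 each), and its log2 fold change of -0.29 ± 0.21 did not pass (edgeR, adjusted p = 0.283). Keratinocyte markers were present in every RNA library, with summed levels of 13700 to 15400 CPM under Msi2 shRNA and 16900 to 20600 CPM under scrambled shRNA for 10 of 10 genes. Of these 10 genes, 3 were called higher and 4 lower in RNA, beside 22.0% higher and 21.7% lower among all genes tested. These markers thus did not move alike.

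With Msi2 shRNA, RNA of the partners Krt8 and Krt18 was higher, Krt19 RNA was slightly lower, and Krt7 and Krt20 did not pass. Of the 5 members tested in RNA, 2 were called higher and 1 lower, where 22.0% of all 11117 genes tested were called higher, 21.7% lower and 43.8% in either direction. The median log2 fold change over the 5 members was 0.56, the value of Krt8 itself, with Krt20 counted above it on few reads. Krt7 and Krt19 lay below 0, so the members were split. Over all genes tested the median was 0.0041. Footprints gave the same calls for the Krt8 and Krt18 pair. Of the 4 members tested there, 2 were higher and none lower, against 8.76% higher, 7.38% lower and 16.1% in either direction among 8969 genes. In bulk cultures, a change in the number of cells of a type and a change of RNA per cell cannot be told apart. This holds for rises and falls.

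Krt18 RNA was 59.8, 68.2 and 69.9 CPM in the Msi2 shRNA libraries and 40.4, 33.4 and 27.6 CPM in the scrambled libraries. All 3 Msi2 shRNA libraries lay above all 3 scrambled ones, as groups failed to overlap for 52.9% of all genes tested in RNA. The log2 fold change was 0.96 ± 0.14 (edgeR, adjusted p = 4.34e-05), the largest called rise among the members in RNA. Krt18 footprints were 75.0, 92.3 and 80.8 CPM with Msi2 shRNA and 46.5, 41.0 and 63.5 CPM with scrambled shRNA. These groups did not overlap either, which held for 31.4% of genes tested in footprints. The footprint log2 fold change was 0.77 ± 0.18 (edgeR, adjusted p = 0.00255). The rise was called in 15 of 15 alternative settings in each assay, between 0.84 and 1.13 in RNA and between 0.62 and 0.88 in footprints.

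Krt8, the type II partner, had 94.0, 87.8 and 89.1 CPM of RNA with Msi2 shRNA and 66.5, 69.5 and 47.0 CPM with scrambled shRNA. The knockdown libraries lay close together and above every scrambled library. The rise was 0.56 ± 0.13 on the log2 scale (edgeR, adjusted p = 0.00266) and was called in 15 of 15 alternatives. Krt8 footprints were 126, 132 and 105 CPM with Msi2 shRNA and 90.9, 77.3 and 46.6 CPM with scrambled shRNA. The groups did not overlap, and the lowest value, in scrambled replicate 3, rested on 33 reads. The footprint log2 fold change was 0.67 ± 0.17 (edgeR, adjusted p = 0.00567). Without knockdown replicate 1, the deepest knockdown library, it was 0.63 and no longer called (edgeR, adjusted p = 0.0552, in a range of 0.00081 to 0.0552 over 15 alternatives).

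Reads that aligned to several places made up 21.8 ± 2.45% of the Msi2 shRNA RNA libraries and 15.2 ± 2.01% of the scrambled ones (SD, n = 3 each; exact two-sided permutation test, p = 0.1, which 3 against 3 libraries cannot go below). Such reads were not counted for any gene. Krt8 has a pseudogene, Krt8-ps, at chr7:23357094-23358779, so reads it shares with Krt8 could be lost in this way, and their part in the Krt8 values was not tested. The RNA kit was directional per the labels, whereas the strand setting of the counting was not given in the sources used here.

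**Figure D1:**
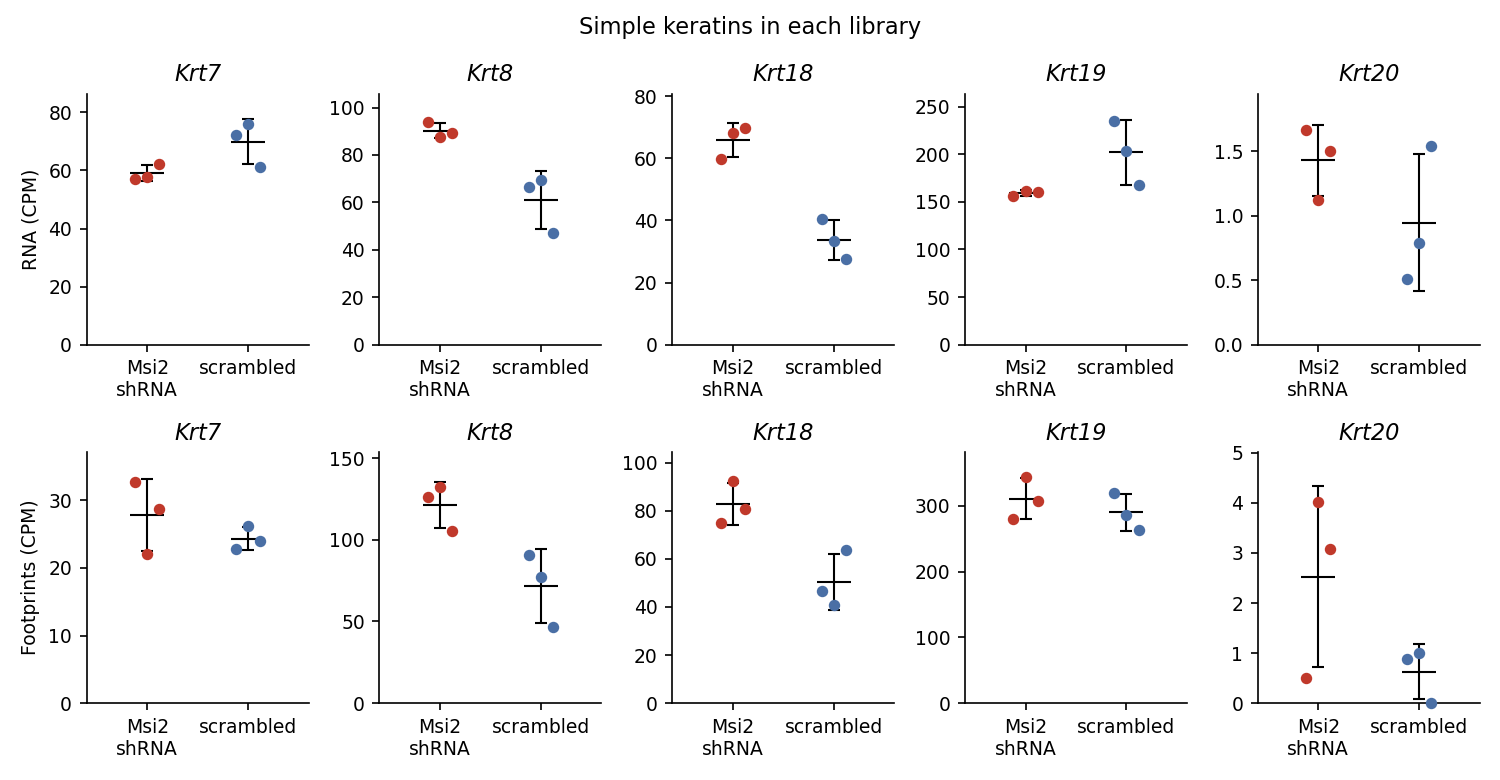
TMM-scaled CPM of each simple keratin in every library, RNA in the upper row and footprints in the lower row, each panel on its own axis from 0. Points are libraries, bars the mean ± SD of 3. Krt8 and Krt18 lie higher in all 3 Msi2 shRNA libraries in both rows, while the Krt7 and Krt19 footprints overlap.

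Krt19 RNA was 156, 162 and 161 CPM in Msi2 shRNA libraries and 235, 203 and 168 CPM in scrambled libraries. The scrambled libraries were spread widely, and the lowest of them was only just above the knockdown libraries. The log2 fold change was -0.34 ± 0.12 (edgeR, adjusted p = 0.0343). This call was held in 8 of 15 alternatives, with adjusted p from 0.000985 to 0.175. It was lost without knockdown replicate 1 (adjusted p = 0.110), knockdown replicate 2 (0.0710), knockdown replicate 3 (0.0928) or scrambled replicate 1 (0.175), all with edgeR. It was also lost with upper-quartile factors, with the replicate block, and with the trend over gene span removed. Krt19 footprints were not called, at 281, 343 and 308 CPM with Msi2 shRNA and 319, 287 and 264 CPM with scrambled shRNA. These groups overlapped, with a log2 fold change of 0.08 ± 0.13 (edgeR, adjusted p = 0.753).

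Krt7 RNA was 57.2, 57.8 and 62.4 CPM with Msi2 shRNA and 72.3, 76.1 and 61.2 CPM with scrambled shRNA. Scrambled replicate 3 fell within the knockdown range. The log2 fold change of -0.24 ± 0.11 did not pass (edgeR, adjusted p = 0.0959). Without scrambled replicate 3 it was -0.33 and was called (edgeR, adjusted p = 0.0150, in a range of 0.0150 to 0.231 over 15 alternatives). Krt7 footprints were 32.7, 22.1 and 28.7 CPM with Msi2 shRNA and 22.8, 26.2 and 24.0 CPM with scrambled shRNA. They overlapped, with a log2 fold change of 0.26 ± 0.23 (edgeR, adjusted p = 0.496).

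Krt20 was close to the limit of detection. Its RNA was 1.66, 1.12 and 1.5 CPM with Msi2 shRNA and 0.513, 0.786 and 1.54 CPM with scrambled shRNA, from 16, 14 and 40 reads with Msi2 shRNA and 10, 18 and 18 reads with scrambled shRNA. The groups overlapped, and the log2 fold change of 0.68 ± 0.45 did not pass (edgeR, adjusted p = 0.230). In footprints Krt20 had 1, 2 and 3 reads with Msi2 shRNA and 2, 3 and 0 reads with scrambled shRNA, too few to be tested. The pooled 6 and 5 reads gave a depth-scaled ratio of 2.07 with an exact 95% interval from 0.526 to 8.56, which covers counting error only. In the scrambled library without a read, a count of 0 allows up to 4.23 CPM.

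No change of translational efficiency was called for any member, which does not show that efficiency stayed alike. Efficiency, footprints relative to RNA, was tested as an interaction term in 1 model of the 12 libraries. Of 10821 genes, 0.203% passed in it, 0.129% higher and 0.0739% lower. The interaction was 0.13 ± 0.23 for Krt8 (adjusted p = 0.879) and -0.18 ± 0.23 for Krt18 (adjusted p = 0.799), both with edgeR. It was 0.43 ± 0.18 for Krt19 (adjusted p = 0.336) and 0.53 ± 0.24 for Krt7 (adjusted p = 0.379), also with edgeR. Before adjustment, p over all 12 libraries was 0.0254 for Krt19 and 0.0370 for Krt7 by edgeR. Krt20 had 0.44 (edgeR, adjusted p = 0.925), on few reads. Both interactions were positive, that is, footprints per RNA were higher with Msi2 shRNA than with scrambled shRNA, and neither passed the adjustment.

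The members differed widely in footprints for the RNA they had. The log2 ratio of footprint to RNA CPM of Krt7 was -1.09 with Msi2 shRNA and -1.52 with scrambled shRNA, or the 8.99th percentile of 8918 genes under Msi2 shRNA and the 3.60th under scrambled shRNA. The median gene had 0.24 with Msi2 shRNA and 0.19 with scrambled shRNA. Krt8 lay near that median, at the 58.4th percentile under Msi2 shRNA and the 52.0th under scrambled shRNA. Krt18 was at the 53.9th percentile under Msi2 shRNA and the 67.0th under scrambled shRNA. Krt19 was at the 78.9th under Msi2 shRNA and the 64.7th under scrambled shRNA. Both values are counts over the same coding sequence, so gene length cancels in this ratio. Reads aligned to several places may be lost to different extents in RNA and footprints, which was not tested. The Krt7 ratio rested on 65, 11 and 28 footprint reads with Msi2 shRNA and 52, 78 and 17 with scrambled shRNA. Lengths were not used here for comparing levels between keratins, so no order of their levels is given.

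Ratios of reads within a library do not depend on scaling. The log2 ratio of Krt8 to Krt18 RNA reads was 0.65, 0.36 and 0.35 with Msi2 shRNA and 0.72, 1.06 and 0.77 with scrambled shRNA. The ratio was thus lower in all 3 knockdown libraries, with a mean difference of -0.39 (two-sided exact permutation p = 0.1, adjusted over 6 ratios p = 0.15). The nearest libraries of the groups lay within counting error. Unlogged, knockdown replicate 1 had 1.57 (exact 95% interval 1.41 to 1.75) and scrambled replicate 1 had 1.65 (1.51 to 1.8). Reads are not scaled by length, so the log2 ratio does not give the relative amounts of the partners. In footprints the same ratio was 0.74, 0.52 and 0.38 with Msi2 shRNA and 0.96, 0.91 and -0.44 with scrambled shRNA, and the groups overlapped (difference 0.07, exact permutation p = 1). Scrambled replicate 3 had 33 Krt8 and 45 Krt18 reads, a ratio of 0.733 (exact 95% interval 0.453 to 1.18). The other two scrambled libraries had 1.95 and 1.89, and without replicate 3 the difference was -0.39.

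Further ratios were chosen after the values had been seen. They set Krt8 against Krt7, both type II, and Krt18 against Krt19, both type I. Each placed a member with a positive RNA log2 fold change over a member with a negative one, so a rise in RNA was built in. No ratio was formed with Krt20, the remaining type I member, which had 10 to 40 reads in an RNA library. The log2 ratio of Krt8 to Krt7 RNA reads was 0.61 ± 0.10 with Msi2 shRNA and -0.21 ± 0.15 with scrambled shRNA (SD, n = 3 each; difference 0.82, exact permutation p = 0.1, adjusted p = 0.15). For Krt18 to Krt19 it was -1.28 ± 0.095 with Msi2 shRNA and -2.58 ± 0.035 with scrambled shRNA (SD, n = 3 each; difference 1.31, exact permutation p = 0.1, adjusted p = 0.15). Neither pair of groups overlapped, and 0.1 is the smallest p that this design allows. The choice of members made that separation likely, so these p-values add no support to it. In footprints the differences were 0.62 for Krt8 to Krt7 (exact permutation p = 0.3, adjusted p = 0.36) and 0.64 for Krt18 to Krt19 (exact permutation p = 0.1, adjusted p = 0.15).

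The 5 members together held 2.37, 2.62 and 2.32% of the RNA reads of all 51 keratin genes with Msi2 shRNA and 1.75, 1.67 and 1.63% with scrambled shRNA. In footprints they held 2.84, 2.89 and 2.86% with Msi2 shRNA and 2.16, 1.86 and 1.5% with scrambled shRNA. The share was higher in every knockdown library, while keratins as a whole took a smaller part of each library. All keratins made up 1.58 ± 0.089% of RNA gene reads with Msi2 shRNA and 2.13 ± 0.198% with scrambled shRNA (SD, n = 3 each). Over all gene reads, the log2 difference in the members' share was 0.11 in RNA and 0.25 in footprints, against 0.54 and 0.66 over keratin reads.

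**Figure D2:**
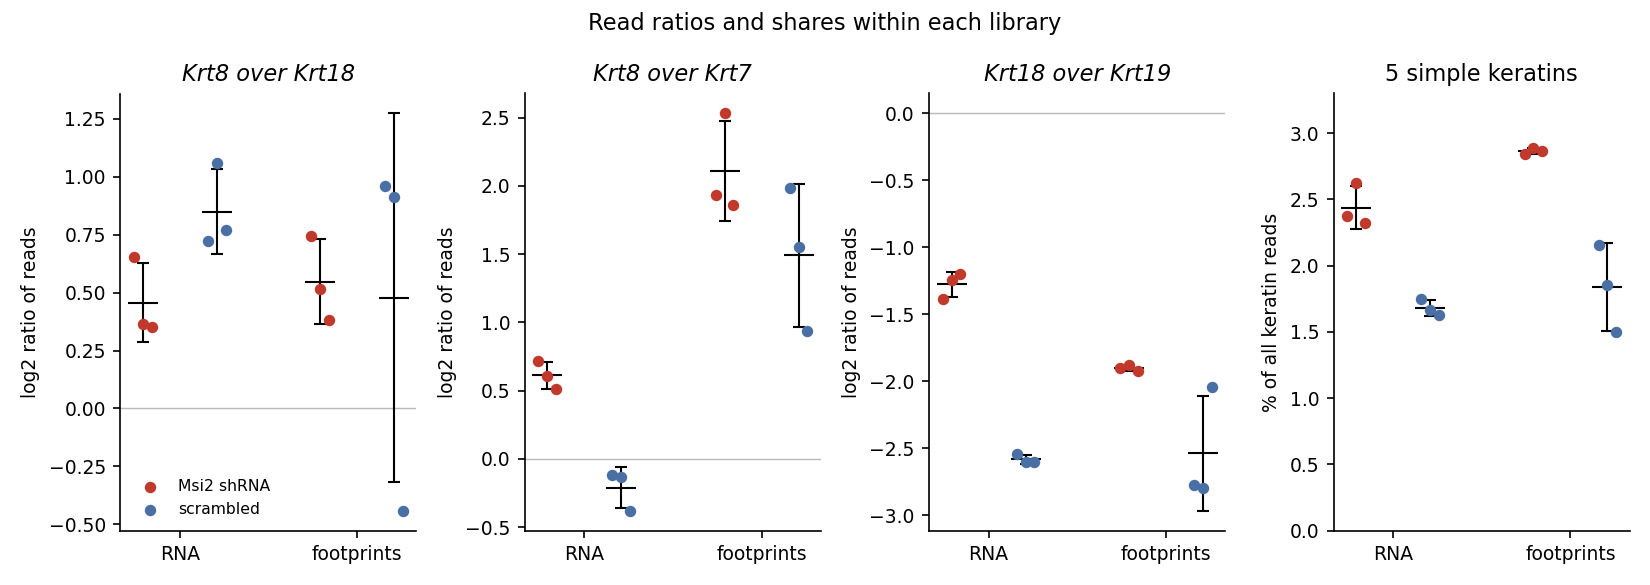
Log2 ratios of reads between keratins within each library, and the share of all keratin reads held by the 5 simple keratins, for RNA and footprints, with Msi2 shRNA left of scrambled. Points are libraries, bars the mean ± SD of 3. The RNA groups are apart in all 4 panels, and a scrambled footprint library lies low in the Krt8 over Krt18 panel, at -0.44. Krt8 over Krt7 and Krt18 over Krt19 were chosen after the values had been seen.

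Most keratins of a list drawn up here for stratified epithelium were lower with Msi2 shRNA, though not all of the list is particular to such epithelium. Of 12 tested in RNA, 10 were called lower, 1 was higher and Krt6a did not pass, beside 21.7% lower and 22.0% higher among all genes tested, with a median log2 fold change of -1.13. In footprints 7 of 9 were lower and none higher, beside 7.38% and 8.76% of all genes, with a median of -0.52. Krt5, the basal type II chain, had 4573 ± 372 CPM of RNA with Msi2 shRNA and 7045 ± 1160 CPM with scrambled shRNA (SD, n = 3 each), a log2 fold change of -0.62 ± 0.15 (edgeR, adjusted p = 0.00255). Its partner Krt14 had 5538 ± 450 CPM with Msi2 shRNA and 7270 ± 950 CPM with scrambled shRNA (SD, n = 3 each), a change of -0.39 ± 0.14 (edgeR, adjusted p = 0.0318). The Krt14 call was lost without knockdown replicate 1 (0.0921), knockdown replicate 2 (0.145), knockdown replicate 3 (0.0703) or scrambled replicate 1 (0.127), as edgeR adjusted p. The smallest p-values in RNA belonged to Krt6b, a keratin of activated epidermis (-2.64 ± 0.14; edgeR, adjusted p = 2.87e-09), Krt78 and the type I keratin Krt23 (-2.88 ± 0.28; edgeR, adjusted p = 1.17e-06), which were all lower. In footprints, as edgeR adjusted p, the Krt5 call was lost without knockdown replicate 1 (0.115) or 3 (0.159) or scrambled replicate 1 (0.0755). That of Krt6a was lost without knockdown replicate 2 (0.176) or 3 (0.152) or scrambled replicate 2 (0.0578) or 3 (0.0759). That of Krt17 was lost without knockdown replicate 1 (0.105) or 3 (0.142) or scrambled replicate 3 (0.158). Krt6a with Krt6b, and Krt14, Krt16 and Krt17 among themselves, have similar sequences, so the counts within these sets are uncertain. Reads they share may align to several places and be counted for none of them. Such reads were 21.8% of the Msi2 shRNA RNA libraries and 15.2% of the scrambled ones, and their part in these values was not tested. The 1 stratified-list gene called higher in RNA was Krt80, a type II chain (0.64 ± 0.12; edgeR, adjusted p = 0.000359), and its footprints did not pass.

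**Figure D3:**
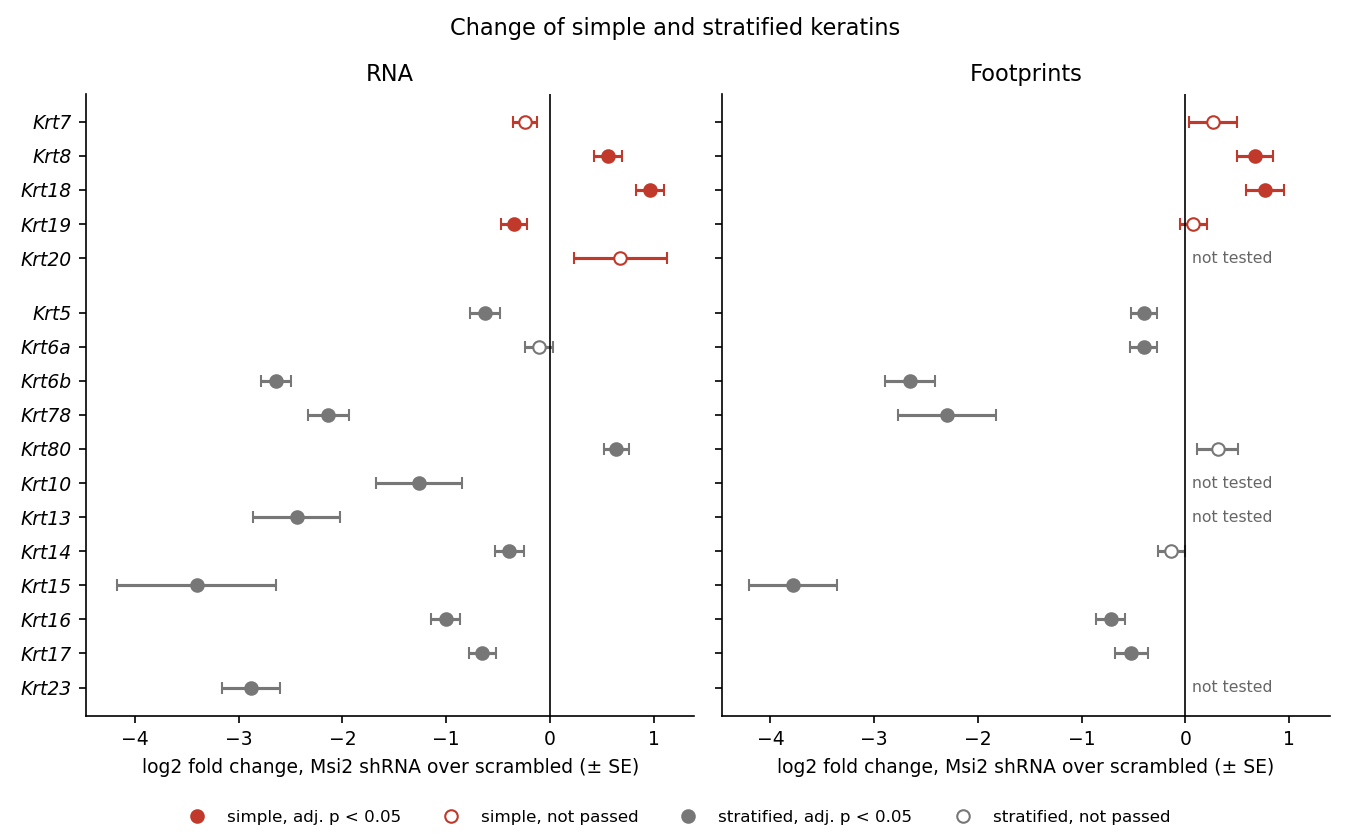
Log2 fold change (Msi2 shRNA over scrambled, ± SE) of the 5 simple keratins and the 12 stratified keratins tested in RNA, with footprints on the right. Filled points passed an adjusted p of 0.05. Krt8 and Krt18 lie right of 0 in both panels, and 10 of the 12 stratified keratins are filled and left of 0 in RNA.

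Neighbours on the chromosome moved in both directions. Krt78, a type II keratin gene whose span lies 0.0870 kb from that of Krt8, had an RNA log2 fold change of -2.14 ± 0.20 (edgeR, adjusted p = 6.71e-07), against the rise of Krt8. On the far side of Krt18, Eif4b, a translation initiation factor at 41.7 kb, had -0.32 (edgeR, adjusted p = 0.0288). That call was lost without knockdown replicate 1 (0.112), 2 (0.0677) or 3 (0.0930) or scrambled replicate 1 (0.10), as edgeR adjusted p. Krt7 lay between Krt80, 42.2 kb away and higher in RNA, and Krt6b, 248 kb away and lower. Krt19 lay 4.86 kb from Krt15, which had -3.41 ± 0.76 (edgeR, adjusted p = 0.0209; 0.0774 without knockdown replicate 1 and 0.0690 without scrambled replicate 2), and 57.2 kb from Krt14. Krt20 lay 39.8 kb from Krt23 and 30.9 kb from Krt10, which had -1.26 (edgeR, adjusted p = 0.0198). The Krt10 call was lost without knockdown replicate 1 (0.0785), knockdown replicate 3 (0.0506) or scrambled replicate 1 (0.122), as edgeR adjusted p.

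Msi2 CLIP gave no region on a simple keratin. None of the 5 members had a peak among the 2671 regions of the 3' UTR list, which cover 1199 genes, and none had a region of the full list of 4051 within its gene span. Regions were listed by the authors from a height of 10, so a lower signal would not be seen. Of all genes tested in RNA, 10.3% had a 3' UTR peak. Of the 3855 genes with a scrambled RNA level from that of Krt18 (33.8 CPM) to that of Krt19 (202 CPM), 543 or 14.1% had one, so having no peak was the usual case for genes at this level in CPM, which is not scaled by length. The 5 CLIP libraries held 6608, 44753, 50864, 61629 and 53712 reads in listed regions.

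Stratified keratins did carry Msi2 regions. A 3' UTR peak was listed for 6 of the 16, namely Krt1, Krt5, Krt6a, Krt14, Krt16 and Krt17, and Krt10 had a region of the full list. Krt14 had 693 CLIP reads over 9 regions, with a 3' UTR peak of height 460. Krt5 had 447 reads over 10 regions, 4 of them 3' UTR peaks with a height of up to 63. Krt1 had 54 CLIP reads although its RNA was at 0.18 CPM in scrambled libraries. Keratins called lower in RNA included genes with a 3' UTR peak (Krt5, Krt14, Krt16 and Krt17) and genes without any listed region (Krt6b, Krt13, Krt15, Krt19, Krt23 and Krt78). Krt6a had 2 peaks in its 3' UTR, and its RNA log2 fold change of -0.11 ± 0.13 did not pass (edgeR, adjusted p = 0.538).

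**Figure D4:**
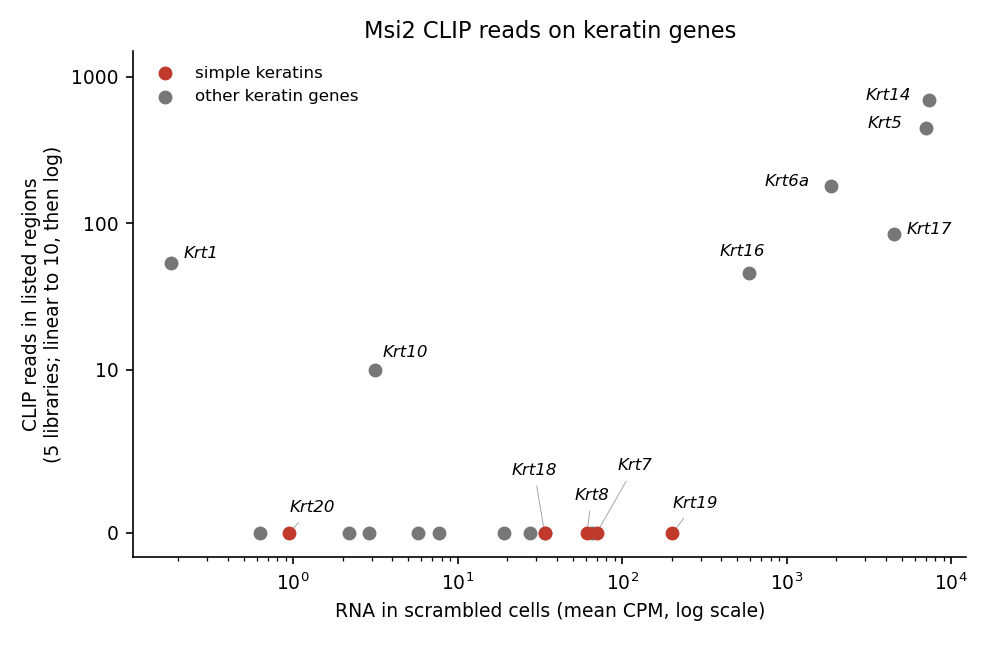
Reads of the 5 Msi2 CLIP libraries in listed regions of each keratin gene (vertical axis, linear to 10 and then logarithmic) against its mean RNA level in scrambled cells (CPM, log scale, not scaled by length). The 5 simple keratins are at 0, while Krt14 has 693 and Krt5 has 447 reads.

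Among genes whose proteins bind or modify keratins, 7 of 22 were called higher in RNA and 5 lower, beside 22.0% higher and 21.7% lower among all genes tested, so the lower count was near the background. The median log2 fold change was -0.03. With every single library left out, 2 of the 7 and 3 of the 5 calls held. The cytolinker Plec (plectin), which ties keratin filaments to hemidesmosomes, was higher in RNA (1.47 ± 0.16; edgeR, adjusted p = 4.06e-06) and in footprints (2.04 ± 0.15; edgeR, adjusted p = 1.38e-12). Csnk1a1, a casein kinase that acts on keratin filaments, was lower in RNA (-0.70 ± 0.13; edgeR, adjusted p = 0.000341), as was Sfn, the 14-3-3 sigma protein of keratinocytes (-0.71 ± 0.15; edgeR, adjusted p = 0.00110). In footprints, where 8.76% of all genes were higher and 7.38% lower, 3 of 20 were higher, namely Plec, Ppl and Pkp2, and 5 were lower, namely Pkp1, Pkp3, Csnk1a1, Sfn and Dnajb6. Of these footprint calls, those of Plec and Csnk1a1 held with every single library left out. Of the 5 other intermediate filament genes tested in RNA, 1 was called, the nuclear lamin Lmnb2, at 0.42 ± 0.15 (edgeR, adjusted p = 0.0281). It was lost without knockdown replicate 1 (0.0568), knockdown replicate 3 (0.184) or scrambled replicate 2 (0.108), as edgeR adjusted p. In footprints 1 of 4 was called, Nes, at 1.52 ± 0.41 (edgeR, adjusted p = 0.00753; 0.103 without scrambled replicate 1).

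Genes that usually accompany simple keratins in epithelia were called in both directions. Of 12 tested in RNA, 2 were higher and 4 lower, beside 22.0% higher and 21.7% lower among all genes, with a median of -0.07. For so short a list, these RNA counts were near the background. The tight junction gene Cldn4 (0.46 ± 0.12; edgeR, adjusted p = 0.00402) and the membrane protease gene St14 (0.45 ± 0.11; edgeR, adjusted p = 0.00430) were higher. Those lower included Cdh1, Spint2 and Esrp1, of which Cdh1 and Spint2 lost the call with some library left out. In footprints 1 of 12 was higher and 4 were lower, beside 8.76% higher and 7.38% lower among all genes tested there. The higher one was St14, a call that held with every single library left out. Those lower included Cdh1, Ehf and Esrp1, whose calls did not. Those listed here without values were named after their values were seen.

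A list of possible regulators of simple keratin genes was also followed, without a check that each factor acts on them. Of its 20 genes tested in RNA, 4 were higher and 2 lower, with a median of 0.17. With 22.0% of all genes higher and 21.7% lower in RNA, these RNA calls were no more frequent than the background. Ets1 (1.65 ± 0.19; edgeR, adjusted p = 6.61e-06) and the AP-1 gene Jun (1.26 ± 0.17; edgeR, adjusted p = 3.18e-05) had the smallest p among those higher, with Fosl1 and Sp3 also called. Jund, another AP-1 gene, was lower (-0.67 ± 0.11, edgeR, adjusted p = 0.000179), as was Ovol1, the gene of a transcriptional repressor. The Sp3 call was lost without knockdown replicate 1 (0.125), knockdown replicate 2 (0.109), scrambled replicate 1 (0.175) or scrambled replicate 2 (0.148), as edgeR adjusted p. In footprints 3 of 19 tested were higher, namely Ets1, Jun and Fosl1, and 4 were lower, namely Jund, Ovol1, Klf5 and Grhl3. Among all genes tested in footprints, 8.76% were higher and 7.38% lower. Of these footprint calls, those of Ets1 and Jun held with every single library left out.

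Markers of the other cells that use simple keratins were low beside the keratinocyte markers. The gland marker sums given below were not low beside Krt18 RNA in scrambled libraries (27.6 to 40.4 CPM), which they overlapped. With Msi2 shRNA they lay below Krt18 RNA (59.8 to 69.9 CPM). Of 12 Merkel cell markers, Krt20 among them, Atoh1, Cck and Rab3c were at 0 in all 6 RNA libraries, and the summed level was 6.64 to 9.05 CPM with Msi2 shRNA and 9.61 to 10.5 CPM with scrambled shRNA. Markers of sweat and other simple glands summed to 27.2 to 31.2 CPM with Msi2 shRNA and 37.5 to 51.1 CPM with scrambled shRNA, with Foxi1 at 0. Most of these RNA sums came from a few genes, among them Sox2, with a mean of 5.76 CPM under Msi2 shRNA and 8.52 CPM under scrambled shRNA, and Lcn2, with 15.6 CPM under Msi2 shRNA and 25.4 CPM under scrambled shRNA. In footprints the sums overlapped, at 5.04 to 22.1 CPM with Msi2 shRNA and 11.3 to 17.1 CPM with scrambled shRNA for Merkel markers. Gland markers had 39.3 to 54.2 CPM of footprints with Msi2 shRNA and 52.7 to 59.3 CPM with scrambled shRNA. The part of either cell type in the keratin values was not tested. Fibroblast and feeder markers summed to 18.7 to 21.9 CPM with Msi2 shRNA and 15.3 to 17.9 CPM with scrambled shRNA, with Col1a2, Col3a1, Pdgfrb, Dcn, Lum and Thy1, 6 of the 10, at 0. Endothelial and muscle markers summed to 3.36 to 5.30 CPM with Msi2 shRNA and 1.49 to 2.57 CPM with scrambled shRNA. Immune markers gave 8.30 to 13.4 CPM with Msi2 shRNA and 16 to 18.6 CPM with scrambled shRNA, and melanocyte markers 2.08 to 3.77 CPM with Msi2 shRNA and 1.71 to 2.31 CPM with scrambled shRNA. The part of the feeder, endothelial and melanocyte sums, which were higher or overlapping under knockdown, in the keratin values was not tested.

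Likeness to each member was described by Pearson's r of log2 CPM over all 12 libraries, centred within each assay, among 7710 genes. These libraries share 2 groups and their depths, so r is given without a test. Krt8 was most like Id3, a transcriptional inhibitor (0.954), Chst12, a sulfotransferase (0.948), and the matrix gene Efemp1 (0.947). Krt18 was most like Fxyd5, a regulator of the sodium pump (0.953), Nfkb2, an NF-kB subunit (0.951), and Mcam, an adhesion molecule (0.947). Krt8 and Krt18 thus did not stand among each other's 3 most similar genes. Krt7 was most like the ribosomal protein genes Rpl21 (0.965), Rpl27 (0.887) and Rps21 (0.885). Krt19 was most like Bad, a cell death gene (0.911), Prkar1a, a protein kinase A subunit (0.903), and Lias, a lipoic acid synthase (0.896). Krt20, over the 6 RNA libraries alone, was most like Ptgfrn (0.983), Nipa2 (0.974) and Dpy19l1 (0.970).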

How the data were processed

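RNA and footprint reads over the coding sequence of each gene were deposited as raw counts, made by the authors with TopHat and HTSeq on mm10, with DESeq also named, per the submitters' processing notes. Those notes name cutadapt and Novoalign for CLIP. The deposited peak lists give a signal (peak height over the 5 libraries) and counts of reads per library. Versions were not given in the sources used here. Lines that name no gene stayed out of library sizes (no feature 32.3 to 35.2%, ambiguous 0.175 to 0.228%, aligned to several places 13.4 to 24.5% of RNA libraries).

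Counts were tested in R 4.3.3 with edgeR 4.0.16 (minimum count 10, minimum total 15, TMM, quasi-likelihood F test with robust fitting, p-values adjusted by Benjamini-Hochberg), with RNA and footprints fitted apart and efficiency as their interaction. The procedure was tested on simulated data. DESeq2 1.42.0 and limma 3.58.1 (voom) were alternatives. Read ratios used a pseudocount of 0.5. RefSeq positions (GRCm38.p6) matched 20442 of 20572 genes; promoters come from RefSeq as well. Members, gene lists and markers were chosen with earlier results of these data known. Named genes are the members, Msi2, Krt5, Krt14, the list genes of smallest p, the nearest tested neighbours and the most similar genes (average log2 CPM of at least 3, prior count 2); further list genes were named after their values were seen. A gene that the rule names is not reported here. Intervals and floors (3 counts) cover counting error only.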

Additional observations from a re-analysis of the deposited data

How the results depend on the processing

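Krt20 had too few footprint reads to be tested. The Krt19 RNA fall was -0.30 with upper-quartile factors, -0.21 with the span trend removed and -0.46 to -0.24 with a library left out; Krt7 RNA ranged from -0.33 to -0.18 and Krt8 footprints from 0.52 to 0.85. Within an assay, knockdown and scrambled libraries of the same number correlated at -0.276 to 0.0573 in RNA and -0.00252 to 0.0503 in footprints. In RNA 0 of 3 knockdown libraries matched their own number best, and in footprints 2 of 3 did. These values do not settle a pairing by replicate number. Pairing between RNA and footprint libraries was not checked. With the replicate block Krt19 RNA was -0.33 (edgeR, adjusted p = 0.0909), and efficiency calls were 1 higher and 2 lower, or 246 and 107 with the block joining assays. Efficiency calls, 14 higher and 8 lower as reported, were 13 lower with DESeq2 size factors, 5 and 13 with upper-quartile factors, 61 and 38 by DESeq2, 46 and 78 unfiltered, and 3 higher with a filter of 10 CPM. With a library left out they ran from 0 to 94 higher and 0 to 149 lower, the most without scrambled RNA replicate 3. The Krt8 interaction, never called, ranged from -0.06 to 0.31, and turned negative without scrambled RNA replicate 1 (-0.00723), scrambled RNA replicate 2 (-0.0568) or scrambled footprint replicate 3 (-0.0319). That of Krt20 ranged from -0.05 to 1.34 and was -0.0467 without knockdown footprint replicate 3. Footprint calls, 786 higher and 662 lower, were 481 and 373 by DESeq2 and 463 to 885 and 350 to 749 with a library left out. Rps21 RNA turned to 0.0695 with the span trend removed. The members' share over all gene counts gave 0.11 in RNA and 0.25 in footprints. The causes were not tested. Shares per kilobase of coding sequence were not run.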
